A study of Homo sapiens with 21 samples.

Results

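Full-length rescue of A673 cells was examined as 1 contrast, the 3 libraries of cells that received a cDNA for wildtype EWS/FLI (WT-EF) against the 3 libraries of cells that received the empty vector (iEF), which are 6 of the 21 RNA-seq libraries of the series. They were chosen by their labels alone, and each library has a replicate number from 1 to 3 that is shared between the groups. A673 is an established Ewing sarcoma cell line, and all 6 libraries come from this 1 line. In both groups the endogenous fusion was depleted with an shRNA against the 3′ end of its transcript, delivered by retrovirus on day 1. The vector, pMSCV-hygro with or without the EWS/FLI cDNA, followed on day 5, and selection with puromycin (2 µg/mL), later joined by hygromycin (400 µg/mL), ran until day 16 before RNA was taken. Both groups therefore share the shRNA, both retroviral infections and both drugs, and differ by the cDNA. The references were 2 further groups of 3 libraries: A673 cells with an shRNA against luciferase that keep the endogenous fusion (iLuc), and depleted cells with a cDNA that lacks the EWS domain (Δ22). The profile of iLuc relative to iEF, called endo-EF, held 41.1% of genes (18.7% higher and 22.4% lower). The study describes its replicates as repeated depletion and rescue experiments, so p-values measure the spread between repeats in a single line.

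EWS/FLI is the fusion of the N-terminal, low-complexity part of EWS to the DNA-binding ETS domain of FLI, and it is the driver of most Ewing sarcomas. It activates genes from repeats of the GGAA motif, which it turns into enhancers by recruiting chromatin remodelers, and it also lowers the expression of many genes, among them genes of the mesenchymal and fibroblast-like programme. Depletion of the fusion is known to give Ewing cells a more mesenchymal, adherent state, and a rescue experiment asks which of these changes a returned cDNA can undo.

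The count of the targeted gene was examined in every library. FLI1 (chr11:128556430-128683162, plus strand, GRCh37), which gives the 3′ part of the fusion, was counted at 20.8, 20 and 21.1 CPM in iEF and at 21.9, 25.2 and 26.5 CPM in WT-EF, where CPM are counts scaled to a TMM library size of 1000000. The WT-EF libraries lay above all 3 iEF libraries, but the difference did not pass the test (log2 fold change 0.24 ± 0.13 SE, adjusted p = 0.196). In iLuc the same gene stood at 61.3, 60.6 and 89.0 CPM and in Δ22 at 41.3, 45.2 and 62.0 CPM, so WT-EF lay below both (log2 fold change -1.51 and -1.0, adjusted p = 7.36e-08 and 7.38e-06). EWSR1, the 5′ partner, stood at 258, 233 and 273 CPM in iEF and at 284, 282 and 284 CPM in WT-EF (log2 fold change 0.15 ± 0.092 SE, adjusted p = 0.236). Gene counts cannot tell a fusion transcript from that of either parent gene. How far FLI1 counts from a cDNA and from the endogenous transcript can be compared was not tested. The study shows the tagged constructs by western blot, while its qRT-PCR for EWS/FLI did not separate WT-EF from iEF. On the authors' ComBat-adjusted values, scaled by library totals without TMM and tested with limma, both genes passed (log2 fold change 0.33 and 0.28, adjusted p = 0.0253 and 0.00261). The part of the scaling in these 2 calls was not tested. All other adjusted p-values below are from the quasi-likelihood test of edgeR, adjusted by Benjamini-Hochberg over 30549 genes with a threshold of 0.05, and errors of fold changes are standard errors.

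Full-length EWS/FLI changed 8635 genes relative to the empty vector, which is 28.3% of the genes tested. Of all genes tested, 11.4% (3470) rose and 16.9% (5165) fell. These 2 shares are the background for the counts of list members below. They depend on level: 4792 of the 10769 genes with a mean of at least 5 CPM over the 6 libraries were called. Lists of well-expressed genes can therefore exceed the 2 shares through their level alone. With a change of at least 2-fold required as well, 1701 genes rose (5.57%) and 3284 fell (10.7%), at 4-fold 2.84% rose and 5.86% fell, and at 16-fold 0.678% rose (207 genes) and 1.36% fell (415 genes). The split between directions differed between analyses. Here 40.2% of calls were higher, and 39.3% with RLE in place of TMM scaling. On the ComBat-adjusted values, tested with limma, 63.1% of 9513 calls were higher. That analysis differed in batch adjustment, scaling and test at once, and which of these moved the split was not tested. All 3 replicate pairs moved in 1 direction for 97.6% of the called genes. The calls were made on these same libraries, so this share follows in large part from the selection. The libraries' totals ran from 33.3 to 44.8 M counts (M, 1000000), so that 1 CPM stood for 32.0 to 42.8 counts. On log2 CPM the first principal component took 78.3% of the variance and separated the groups, and the next took 12.6% and set iEF replicate 2 apart at -46.5, against 11.1 and 33.7 for the other iEF libraries. Without iEF replicate 2, 7603 genes were called.

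**Figure D1:**
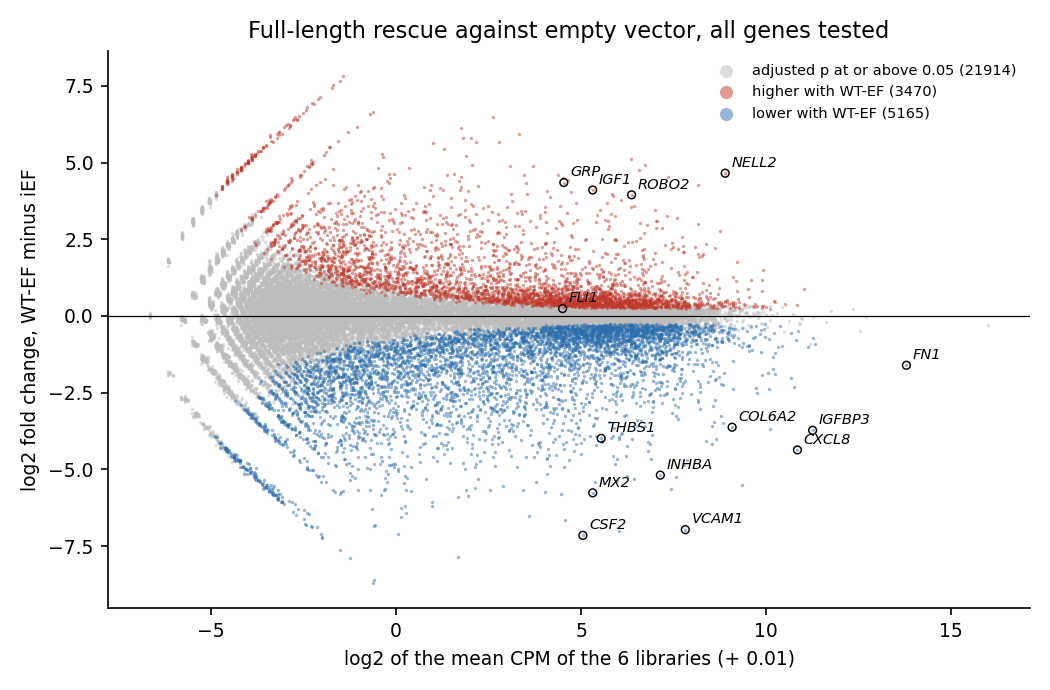
Log2 fold change of WT-EF relative to iEF (y axis) against the log2 of the mean CPM of the 6 libraries plus 0.01 (x axis), 1 point per tested gene. Red points are the 3470 genes called higher and blue points the 5165 called lower, and circled genes include FLI1, which was not called, NELL2 at 4.66 and CSF2 at -7.15.

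A panel of 5 genes had also been followed by qRT-PCR. The study reports that assay ahead of its first RNA-seq experiment. The libraries here are labelled Experiment 2, so the assay is not taken to be of the same cells. NR0B1, an orphan nuclear receptor whose promoter carries a GGAA repeat, stood at 10.9, 23.2 and 14.9 CPM in iEF and at 25.6, 29.2 and 30.6 CPM in WT-EF. The groups did not overlap, although iEF replicate 2 came close, and the rise was 1.79-fold (log2 fold change 0.84 ± 0.27, adjusted p = 0.0214). That call was lost without WT-EF replicate 1 or 3 or iEF replicate 1 or 3, where the log2 fold change was 0.66 to 0.86. NKX2-2, a homeobox factor needed for transformation in this line, rose from 0.747, 1.38 and 0.811 CPM to 3.53, 3.85 and 3.46 CPM (log2 fold change 1.92 ± 0.27, adjusted p = 1.03e-05).

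The repressed genes of that panel fell. TGFBR2, the type 2 receptor of TGF-beta, went from 181, 155 and 220 CPM to 78.2, 70.8 and 62.0 CPM (log2 fold change -1.41 ± 0.18, adjusted p = 4.03e-06). IGFBP3, which binds insulin-like growth factors outside the cell, was among the most abundant transcripts of depleted cells at 3770, 5870 and 3970 CPM and stood at 532, 259 and 267 CPM after rescue (log2 fold change -3.73 ± 0.26, adjusted p = 1.38e-09). LOX, which crosslinks collagen, went from 319, 299 and 422 CPM to 58.3, 28.4 and 49.5 CPM (log2 fold change -2.97 ± 0.27, adjusted p = 6.28e-08). None of the 5 reached its level in iLuc: NR0B1 and NKX2-2 stayed below it by 0.89 and 1.29 log2 units, and TGFBR2, IGFBP3 and LOX stayed above it by 0.85, 4.35 and 3.23 log2 units, all with adjusted p from 4.53e-10 to 0.0211.

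**Figure D2:**
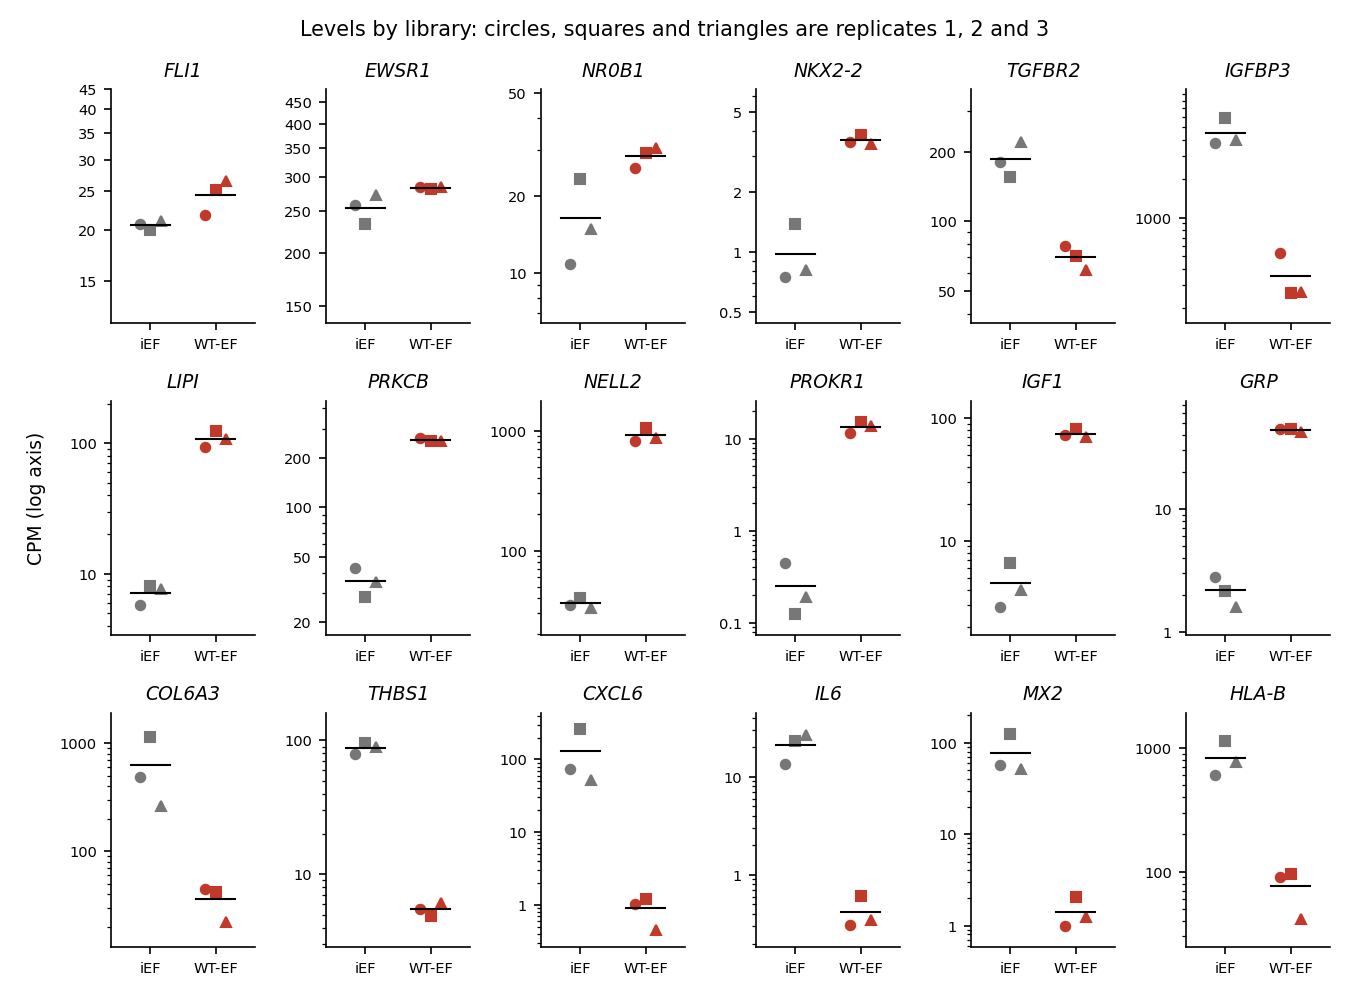
CPM on log axes for 18 genes in the 3 iEF (grey) and 3 WT-EF (red) libraries, with replicates 1, 2 and 3 as circles, squares and triangles and the mean as a bar. FLI1 and EWSR1 differed little, the 6 genes from LIPI to GRP were higher and the 6 from COL6A3 to HLA-B lower in every WT-EF library than in any iEF library.

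Known activated targets of the fusion rose almost throughout. Of 28 listed genes, all tested, 26 rose, 1 fell and 1 was not called, with a median log2 fold change of 1.35 against -0.0025 over all genes. The list was compiled with results of these data known and is not independent evidence of its direction. LIPI, a membrane-bound phospholipase that marks Ewing sarcoma, stood at 5.76, 8.10 and 7.70 CPM in iEF and at 93.9, 125 and 107 CPM in WT-EF, with no overlap (log2 fold change 3.92 ± 0.20, adjusted p = 3.28e-11). PRKCB, a protein kinase C, went from 42.5, 28.3 and 35.2 CPM to 262, 253 and 254 CPM (log2 fold change 2.85 ± 0.20, adjusted p = 1.26e-09). FCGRT, the heavy chain of the neonatal Fc receptor, went from 6.60, 9.98 and 7.19 CPM to 38.2, 43.2 and 57.6 CPM (log2 fold change 2.57 ± 0.19, adjusted p = 2.63e-09). LOXHD1, a stereocilia protein in its usual tissue, rose by 3.52 ± 0.33 log2 units (adjusted p = 6.99e-08). Among targets chosen for mention after their values were seen, GLI1, a transcription factor of the hedgehog pathway, rose by 3.22 log2 units from under 0.4 CPM, STEAP2, a metalloreductase, by 2.15, and CCND1, cyclin D1, by 0.36. RUNX3, a Runt family factor listed as activated, was the exception and fell from 44.9, 54.2 and 41.6 CPM to 14.3, 9.87 and 10.5 CPM (log2 fold change -2.02 ± 0.20, adjusted p = 1.58e-07). In the direct test against iLuc, 16 of the 28 stayed below iLuc (8.52% of all genes did) and 0 exceeded it. Against Δ22, 25 were higher with WT-EF (10.7% of all genes were) and 1 lower.

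Among genes with a mean of at least 5 CPM, most of the largest increases were in genes that averaged under 2 CPM in depleted cells. That mean was taken over iEF and WT-EF libraries together, so a gene could reach it through its WT-EF level alone. Ranking by fold change favours genes with a low iEF level, so these low levels follow in part from the selection. PROKR1, a prokineticin receptor, went from 0.443, 0.125 and 0.189 CPM to 11.6, 15.3 and 13.7 CPM (log2 fold change 5.68 ± 0.40, adjusted p = 1.99e-09). APELA, a peptide ligand of the apelin receptor, went from 0.373, 0.939 and 0.405 CPM to 10.6, 18.6 and 19.5 CPM (log2 fold change 4.89 ± 0.35, adjusted p = 2.23e-09). All 3 WT-EF libraries stood above 10 CPM for both genes and all 3 iEF libraries below 1 CPM. NELL2, a secreted neural glycoprotein, was the most abundant of this group and went from 35.0, 40.1 and 33.5 CPM to 822, 1050 and 871 CPM (log2 fold change 4.66 ± 0.21, adjusted p = 1.6e-11). OLFM3, a secreted olfactomedin, rose by 4.91 ± 0.24 and DKK2, a secreted Wnt modulator, by 4.77 ± 0.34 log2 units. OLFM3, DKK2 and NELL2 were not called against iLuc (log2 fold change 0.13, -0.13 and 0.18, adjusted p = 0.587 or more), and PROKR1 exceeded it by 1.11 log2 units (adjusted p = 0.0113). The immunoglobulin gene IGHG4 gave the highest fold change among these genes (6.48 ± 0.48), but it has near-identical copies and its counts are uncertain.

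Transcription factors of development rose more often than they fell. In the HOXD cluster, whose genes set position along the body and limb axes, 7 of 9 genes rose, with a median of 1.30 log2 units, and 1 fell. HOXD9 went from 4.83, 6.66 and 4.05 CPM to 19.7, 18.6 and 17.4 CPM (log2 fold change 1.86 ± 0.19, adjusted p = 2.44e-07), and HOXD13 from 16.2, 18.4 and 13.7 CPM to 40.2, 43.5 and 35.6 CPM (log2 fold change 1.31 ± 0.12, adjusted p = 4.22e-08). HOXD3 and HOXD8 rose by 1.73 and 1.39 log2 units, while HOXD1, at the other end of the cluster and below 1 CPM, fell by 1.95. Of 27 tested factors of neural and other developmental programmes, 14 rose and 3 fell. POU3F1, a POU factor of neural and Schwann cell progenitors, went from 4.85, 3.97 and 5.40 CPM to 33.3, 35.4 and 36.5 CPM (log2 fold change 2.88 ± 0.20, adjusted p = 1.21e-09). DLX5, ISL1 and BCL11B, homeobox and zinc finger factors of neuronal development, rose by 2.28, 2.25 and 2.03 log2 units, and MEIS2 and SOX5 fell by 1.61 and 1.5. The remaining gene that fell, not named here, did so by 4.01 log2 units.

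Factors of the mesenchyme moved the other way. Of 23 tested, 15 fell and 3 rose, with a median of -1.77 log2 units. RUNX1, a Runt family factor, went from 40.1, 38.3 and 68.5 CPM to 5.02, 2.71 and 3.24 CPM (log2 fold change -3.74 ± 0.27, adjusted p = 2.94e-09). NR2F1, a nuclear receptor of neural crest and mesenchyme, fell by 3.74 ± 0.32, ZEB1, a driver of the mesenchymal state, by 3.00 ± 0.22, and PRRX1, a homeobox factor of limb mesenchyme, by 2.30 ± 0.19 log2 units. Close relatives of 2 of these rose: NR2F2 from 27.5, 14.4 and 30.5 CPM to 56.5, 62.2 and 68.7 CPM (log2 fold change 1.38 ± 0.19) and ZEB2 from 297, 278 and 342 CPM to 456, 496 and 400 CPM (log2 fold change 0.56 ± 0.13). The remaining gene that rose was TWIST1, by 0.69. These 3 were named after their values were seen.

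**Figure D3:**
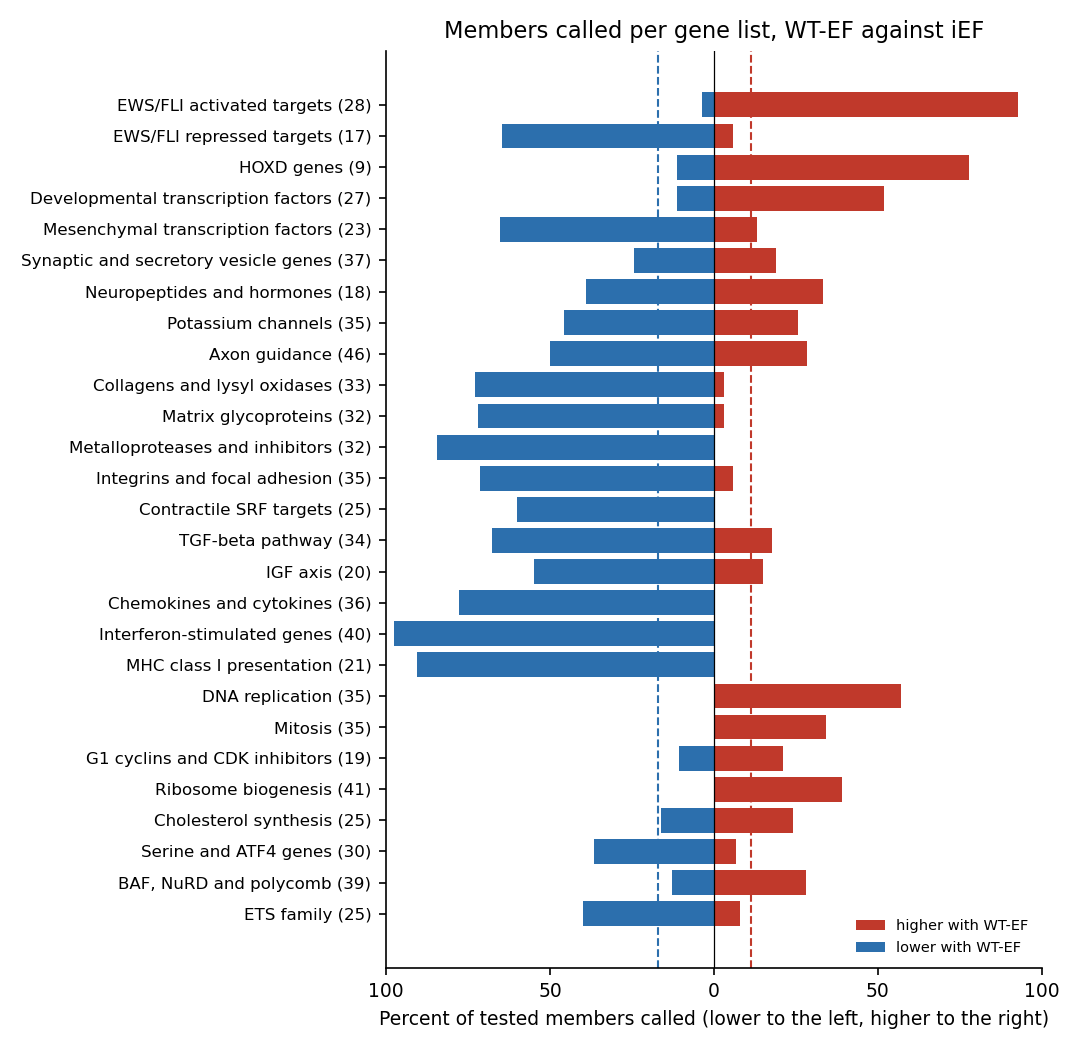
Percent of the tested members of each gene list (number tested in parentheses) that were called lower (blue, to the left) or higher (red, to the right) with WT-EF than with iEF. Dashed lines mark 16.9% and 11.4%, the shares of all tested genes called lower and higher, and the bar of the interferon-stimulated genes is the longest, with 39 of 40 lower.

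Extracellular matrix genes fell as a group. Of 33 collagens and lysyl oxidases, 24 fell and 1 rose, with a median of -1.42 log2 units. The collagen VI chains, which form beaded filaments around cells, fell together: COL6A1 from 582, 863 and 608 CPM to 68.9, 56.5 and 45.3 CPM, COL6A2 from 784, 1240 and 977 CPM to 107, 78.5 and 59.4 CPM, and COL6A3 from 482, 1130 and 265 CPM to 44.5, 42.1 and 22.1 CPM. Their log2 fold changes were -3.58 ± 0.29, -3.63 ± 0.28 and -4.06 ± 0.39 (adjusted p = 1.03e-08, 5.55e-09 and 1.08e-07). COL21A1, a collagen of the fibril-associated class, was the 1 member that rose, from 6.37, 12.2 and 8.62 CPM to 59.2, 95.4 and 72.3 CPM (log2 fold change 3.08 ± 0.30). Bulk RNA cannot tell fewer matrix-producing cells from less RNA per cell.

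Of 32 matrix glycoproteins, 23 fell and 1, the proteoglycan gene DCN at about 1 CPM, rose. THBS1, thrombospondin 1, an adhesive glycoprotein and listed repressed target, had close replicates: 79.3, 95 and 88.6 CPM in iEF and 5.55, 4.86 and 6.14 CPM in WT-EF (log2 fold change -3.99 ± 0.15, adjusted p = 1.37e-12). LAMA4, a laminin chain of basement membranes, fell by 3.59 ± 0.28 log2 units. FN1, fibronectin, stood at 19500, 28900 and 16000 CPM in iEF and at 7600, 6610 and 6410 CPM in WT-EF (log2 fold change -1.61 ± 0.17, adjusted p = 2.76e-07). It was named for its level after the values were seen, and accounts for most of the summed list, which ran from 22000 to 38800 CPM in iEF and from 9970 to 11700 CPM in WT-EF.

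Proteases of the matrix and their inhibitors fell in 27 of 32 cases and rose in 0, with a median of -2.24. PLAT, tissue plasminogen activator, went from 624, 1150 and 475 CPM to 52.3, 33.3 and 52.5 CPM (log2 fold change -4.02 ± 0.35, adjusted p = 2.7e-08). ADAM12 and ADAMTS6, membrane-bound and secreted metalloproteases, fell by 3.48 and 3.89 log2 units, the latter from a spread of 15.4 to 133 CPM in iEF.

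Adhesion receptors showed the same direction, with 25 of 35 integrin and focal adhesion genes lower and 2, ITGA7 and TNS1, higher. Collagen- and laminin-binding integrin subunits led: ITGA2 went from 159, 46.1 and 163 CPM to 8.10, 5.78 and 8.15 CPM (log2 fold change -4.0 ± 0.39), ITGA3 from 326, 384 and 321 CPM to 47.1, 24.9 and 37.6 CPM (-3.25 ± 0.19), and ITGA10 and ITGA11 fell by 3.65 and 2.89 log2 units. ITGA7, a laminin receptor of muscle, rose from 3.34, 3.88 and 2.57 CPM to 12.5, 13.9 and 18.3 CPM (2.19 ± 0.24). Core adaptors such as PTK2, FERMT2 and VCL were not called, with log2 fold changes of 0.05, 0.00 and -0.16. Of 25 contractile genes controlled by serum response factor, 15 fell and 0 rose. MYLK, myosin light chain kinase, went from 143, 160 and 95.9 CPM to 24.6, 24.7 and 35.2 CPM (log2 fold change -2.27 ± 0.23, adjusted p = 2.48e-07), and TPM1, a tropomyosin, fell by 2.13 ± 0.24, while ACTB and SRF itself gave -0.14 and -0.19 and were not called. With a 2-fold change required as well, 8 of the contractile genes were called.

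In the TGF-beta pathway 23 of 34 genes fell and 6 rose. On the ComBat-adjusted values 14 fell, and with a 2-fold change required as well 2 rose. Among ligands and their extracellular partners, INHBA, the activin A subunit, went from 172, 334 and 318 CPM to 8.10, 6.99 and 6.68 CPM (log2 fold change -5.19 ± 0.31, adjusted p = 1.98e-10), FST, its antagonist follistatin, fell by 4.34 ± 0.36, GREM1, a BMP antagonist, by 4.11 ± 0.47, and LTBP1, which tethers latent TGF-beta, by 3.90 ± 0.20. Among receptors, TGFBR1 and TGFBR2 fell by 1.95 and 1.41 log2 units. Among the signal transducers, SMAD3 of the TGF-beta branch fell by 2.39 ± 0.21 and SMAD2 and SMAD4 were not called (-0.25 and -0.03), while SMAD9 of the BMP branch rose from 20.2, 14.6 and 25.1 CPM to 77.7, 70.5 and 74.7 CPM (1.91 ± 0.19) and the inhibitory SMAD6 rose by 1.30 ± 0.30.

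Among 20 genes of the insulin-like growth factor axis, 11 fell and 3 rose. The ligand gene IGF1 rose from 2.89, 6.63 and 3.94 CPM to 72.3, 81.9 and 70.6 CPM (log2 fold change 4.11 ± 0.26, adjusted p = 3.76e-10) and stood above its iLuc level of 40.1, 32.2 and 25.5 CPM (log2 fold change 1.19, adjusted p = 0.000622). Most of its exon bases are shared with HELLPAR on the opposite strand, and the strand setting of the counting is not given in the sources used here, so the counts could belong to either gene. The adaptor gene IRS2 rose by 1.87 ± 0.21 and IGF2BP1, which binds the IGF2 transcript, by 0.79. Among the binding proteins besides IGFBP3, IGFBP7 went from 42.0, 63.9 and 42.8 CPM to 5.98, 6.00 and 7.91 CPM (-2.86 ± 0.25) and IGFBP6 fell by 2.78 ± 0.19. The receptor gene IGF1R fell by 0.57. IGFBP5 was not called (0.16 ± 0.23).

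Chemokine and cytokine genes had the lowest median of the 31 lists. Of 36 tested, 28 fell and 0 rose, with a median of -3.87 log2 units, and the summed level of the list ran from 3710 to 6990 CPM in iEF and from 254 to 328 CPM in WT-EF. CSF2, the granulocyte-macrophage growth factor, went from 28.7, 108 and 59.8 CPM to 0.505, 0.605 and 0.147 CPM (log2 fold change -7.15 ± 0.89, adjusted p = 2.95e-06). CXCL6, a neutrophil chemokine, went from 73.6, 261 and 52.0 CPM to 1.03, 1.19 and 0.442 CPM (log2 fold change -7.01 ± 0.83, adjusted p = 1.51e-06). IL6, an interleukin of the acute phase, went from 13.6, 23.4 and 26.6 CPM to 0.312, 0.605 and 0.344 CPM (log2 fold change -5.66 ± 0.52, adjusted p = 5.64e-08). CXCL8, interleukin 8, was the most abundant in depleted cells at 2330, 4230 and 3960 CPM and stood at 211, 126 and 178 CPM after rescue (-4.37 ± 0.42). CXCL1, CXCL2 and CXCL3 fell by 5.30, 4.91 and 5.73 log2 units, but their transcripts are near copies of each other and the split of reads between them is uncertain.

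Genes outside the list were also among the 8 largest falls of genes with a mean of at least 5 CPM. VCAM1, the leukocyte adhesion molecule, went from 54.8, 1140 and 146 CPM to 1.35, 6.10 and 1.06 CPM (log2 fold change -6.97 ± 1.07, adjusted p = 3.82e-05), where iEF replicate 2 stood far above its group. C3, the central complement component, went from 52.2, 46 and 42.6 CPM to 0.408, 0.774 and 0.246 CPM (-6.65 ± 0.76), with close iEF replicates. SRGN, a proteoglycan of secretory granules, fell by 6.54 ± 0.76, and DHRS3, which reduces retinaldehyde, by 5.81 ± 0.61. With Δ22 in place of WT-EF, the median of the chemokine and cytokine list was -1.08 log2 units against iEF, a comparison that shares the iEF libraries, and 25 of the 36 genes were lower with WT-EF than with Δ22 in the direct test (14.5% of all genes were) and 0 higher. On the ComBat-adjusted values 12 of the chemokine and cytokine genes were called lower.

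Interferon-stimulated genes, which restrict viruses and are switched on by STAT and IRF factors, fell almost without exception: 39 of 40 were called lower, with a median of -2.17 log2 units, and IFITM2 was not called (0.17 ± 0.43). MX2, a dynamin-like antiviral GTPase, went from 57.4, 126 and 51.0 CPM to 0.985, 2.03 and 1.23 CPM (log2 fold change -5.76 ± 0.58, adjusted p = 1.83e-07). OAS2, which makes the activator of RNase L, went from 55.5, 147 and 40.0 CPM to 1.06, 3.22 and 1.30 CPM (-5.40 ± 0.60, adjusted p = 6.85e-07). IFI27 went from 76.9, 213 and 76.2 CPM to 2.07, 4.77 and 1.69 CPM (-5.39 ± 0.64, adjusted p = 1.64e-06), and XAF1, a proapoptotic interferon target, fell by 5.23 ± 0.66. In each of these, replicate 2 was the highest library of both groups. Among the transcription factors of the list, IRF1 fell by 2.76 ± 0.32, IRF7 by 1.23 and STAT2 by 1.21 log2 units. In the direct test against iLuc, 28 of the 40 stayed higher in WT-EF and 0 lower, against 9.78% of all genes higher, and against Δ22, 37 were lower.

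Antigen presentation by MHC class I fell with them, in 19 of 21 tested genes. HLA-B went from 607, 1140 and 765 CPM to 90.5, 95.7 and 41.7 CPM (log2 fold change -3.49 ± 0.36, adjusted p = 2.99e-07), HLA-C from 632, 964 and 670 CPM to 201, 185 and 105 CPM (-2.24 ± 0.21), and TAP1, the peptide transporter, from 102, 151 and 97.1 CPM to 28.6, 26.9 and 19.0 CPM (-2.23 ± 0.24). HLA-F fell by 4.42 ± 0.52. Classical and nonclassical HLA genes are near copies of each other, so the split of reads between them is uncertain. B2M, the shared light chain, fell by only 0.50 ± 0.15 log2 units from 1730, 2800 and 1940 CPM, and the chaperones CALR and CANX were not called (-0.51 and -0.25).

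Promoter sequences of the interferon, class I and cytokine groups are shown because their members moved together. RefSeq promoters on GRCh38.p14 (250 bases before to 50 after the start) matched 15069 of the tested genes by symbol. The letters GAAANNGAAA, the core of the interferon-stimulated response element, were sought on both strands and stood in 20 of 30 promoters of interferon-stimulated genes and in 9 of 17 of the class I list, against 3.01% of all matched promoters, 2.4% of those of genes called higher and 4.46% of those called lower. Capitals mark these letters, in either orientation, in stretches from before the start. The 5 genes shown are the holders that fell most within the interferon and class I lists, after the exclusions given here and below. HLA-F, at -4.42 log2 units, also holds the letters but is left out because its counts are uncertain. MX2, OAS2 and XAF1 are not shown, as either no promoter was matched or the letters did not stand before the start. The stretches lie on chr14:94110598-94110680 (plus strand), chr15:88638917-88638986 (plus), chr1:78620345-78620414 (plus), chr19:17405715-17405790 (minus) and chr16:67936851-67936901 (minus).
IFI27: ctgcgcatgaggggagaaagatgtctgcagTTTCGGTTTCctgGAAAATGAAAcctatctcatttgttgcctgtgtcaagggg
ISG20: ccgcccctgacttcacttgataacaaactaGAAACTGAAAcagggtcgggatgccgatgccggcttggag
IFI44L: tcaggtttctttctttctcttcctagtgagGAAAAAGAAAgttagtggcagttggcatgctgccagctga
BST2: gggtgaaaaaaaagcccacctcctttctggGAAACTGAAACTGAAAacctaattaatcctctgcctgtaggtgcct
PSMB10: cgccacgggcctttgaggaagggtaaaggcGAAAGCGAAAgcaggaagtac
IFI27 holds the letters in both orientations and BST2 in 2 overlapping copies. ISG20, an exonuclease, fell by 2.97, IFI44L by 2.83, BST2, the tether of budding virions, by 2.74 and PSMB10, a subunit of the immunoproteasome, by 2.41 log2 units. A match describes the letters and is not a measured site. The shares in the interferon and class I lists can follow from how the lists were composed. Nearly all members fell, so the shares cannot tell genes that fell from genes that did not.

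The letters GGGNNTTTCC, a common form of the NF-kappaB element, were sought in the same way. They stood in 8 of 26 promoters of the chemokine and cytokine list, against 2.08% of all matched promoters, 1.6% of those of genes called higher and 2.73% of those called lower. For the stretches here and above, only letters before the start were used, and genes on chromosomes 8, X and Y were left out. Of the holders that remain, the 4 that fell most lie on chr4:73836558-73836627 (plus strand), chr4:74038729-74038798 (minus), chr7:22727097-22727166 (plus) and chr4:73869284-73869353 (plus).
CXCL6: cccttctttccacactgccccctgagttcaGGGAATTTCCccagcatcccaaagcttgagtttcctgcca
CXCL3: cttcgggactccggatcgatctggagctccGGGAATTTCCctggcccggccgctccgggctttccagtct
IL6: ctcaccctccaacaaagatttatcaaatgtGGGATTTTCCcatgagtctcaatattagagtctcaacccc
CXCL1: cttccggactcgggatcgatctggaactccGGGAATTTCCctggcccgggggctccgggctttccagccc
In these 4 promoters the letters begin 73 to 90 bases before the start, and the stretches of CXCL1 and CXCL3 are near copies. These 2 genes are shown although the split of reads between them is uncertain. GGAAGGAA, a tandem of the ETS core, stood in 3.65% of promoters of genes called higher, 3.76% of those called lower and 3.47% of all, and in 1 of 24 promoters of the activated targets. These motifs and the window were chosen after the values were seen. The share of NF-kappaB letters in the cytokine list can likewise follow from how that list was composed.

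Genes of proliferation rose by small amounts. Of 35 DNA replication genes, 20 rose and 0 fell, with a median of 0.50 log2 units. PRIM1, the catalytic subunit of primase, went from 27.5, 18.1 and 16.2 CPM to 43.6, 37.8 and 34.3 CPM (log2 fold change 0.92 ± 0.15, adjusted p = 7.9e-05), and POLE, the leading-strand polymerase, from 92.3, 67.5 and 63.4 CPM to 123, 137 and 143 CPM (0.86 ± 0.19, adjusted p = 0.00158). MCM2, part of the replicative helicase, rose by 0.66 ± 0.17, while PCNA, the sliding clamp, was not called (0.25 ± 0.24). The count of replication genes that rose was 12 without WT-EF replicate 2 and 9 without iEF replicate 3, and no replication gene changed by 2-fold. Of 35 mitotic genes 12 rose and 0 fell, among them NCAPH, a condensin subunit, by 0.65 ± 0.15, BUB1B, a checkpoint kinase, by 0.61 ± 0.18, and KIF11 and KIF2C, mitotic kinesins, by 0.58 and 0.57 log2 units. The count of mitotic genes that rose was 1 without iEF replicate 3 (where 1 fell), 6 without WT-EF replicate 2, 7 without WT-EF replicate 3 and 5 with no replicate block, against 20 with no low-count filter and 25 on the ComBat-adjusted values. BUB1B, KIF11 and KIF2C lost their calls without iEF replicate 3 (0.36 to 0.41 log2 units). The summed mitotic level was 3830 to 6550 CPM in iEF and 6380 to 7190 CPM in WT-EF.

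Of 19 tested regulators of the G1 phase 4 rose and 2 fell, against 11.4% and 16.9% of all genes. Their median was 0.10 log2 units. CDKN1A, the p21 inhibitor of cyclin-dependent kinases, went from 148, 117 and 211 CPM to 42.7, 52.4 and 53.2 CPM (log2 fold change -1.69 ± 0.21, adjusted p = 3.16e-06), and CDK6 from 255, 264 and 306 CPM to 89.6, 90.7 and 82.6 CPM (-1.66 ± 0.22, adjusted p = 5.63e-06). E2F2, an activator of S phase genes, rose from 13.6, 10.9 and 9.51 CPM to 33.3, 41.0 and 39.9 CPM (1.73 ± 0.26, adjusted p = 3.19e-05). The G1 genes that rose were 1 without WT-EF replicate 1 or 2 and 2 without iEF replicate 2 or 3. Ribosome biogenesis genes rose in 16 of 41 cases and fell in 0, with a median of 0.33 log2 units. POLR1B, a subunit of RNA polymerase I, went from 60.6, 59.5 and 59.6 CPM to 93.3, 95.7 and 91.7 CPM (0.64 ± 0.11, adjusted p = 0.000123) and WDR12, a processing factor of the large subunit, from 98.9, 96.1 and 91.2 CPM to 146, 144 and 140 CPM (0.59 ± 0.0991, adjusted p = 0.000111). The replicates of both were tight. The ribosome count was 9 without iEF replicate 2 and 34 on the ComBat-adjusted values.

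Subunits of chromatin complexes that work with the fusion were called in both directions. Of 39 tested BAF, NuRD and polycomb genes, 11 rose and 5 fell, against 11.4% and 16.9% of all genes tested. Calls are more frequent at higher levels: of 10769 genes with a mean of at least 5 CPM over the 6 libraries, 4792 were called. On the ComBat-adjusted values 25 of the list rose and 2 fell. SMARCC1, a core BAF subunit, went from 160, 152 and 142 CPM to 363, 390 and 331 CPM (log2 fold change 1.25 ± 0.12, adjusted p = 1.03e-07), and CHD3, a NuRD remodeler, from 124, 122 and 93.3 CPM to 296, 307 and 251 CPM (1.33 ± 0.13, adjusted p = 8.06e-08). SMARCC1 and CHD3 were the 2 that rose by at least 2-fold. ARID2 rose by 0.64, SMARCA4, a BAF ATPase, by 0.41 and EZH2, the polycomb methyltransferase, by 0.61 log2 units. DPF3, a histone reader of BAF, fell from 18.0, 24.1 and 57.6 CPM to 9.01, 9.24 and 13.3 CPM (-1.55 ± 0.22). The count of those that fell was 2 or 3 without WT-EF replicate 1, 2 or 3, without iEF replicate 1 and with no replicate block.

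Other members of the ETS family, which bind the same GGAA core, fell in 10 of 25 cases and rose in 2, or in 5 on the ComBat-adjusted values. The shares over all genes tested were 16.9% lower and 11.4% higher. ETS1 went from 233, 276 and 560 CPM to 64.8, 44.7 and 54.1 CPM (log2 fold change -2.66 ± 0.30, adjusted p = 1.01e-06), and EHF, an epithelial ETS factor, from 15.4, 9.67 and 18.2 CPM to 0.360, 0.363 and 0.196 CPM (-5.54 ± 0.54, adjusted p = 1.26e-07). ELF4 and ETV5 fell by 1.35 and 1.09. FEV, itself a rare fusion partner of EWS, had 1 count over the 3 iEF libraries and stood at 0.841, 1.09 and 1.87 CPM in WT-EF and at 1.44, 2.65 and 3.21 CPM in iLuc. ELF2 rose by 0.43, and the close relative ERG fell by 1.32 from a mean of 1.58 CPM.

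**Figure D4:**
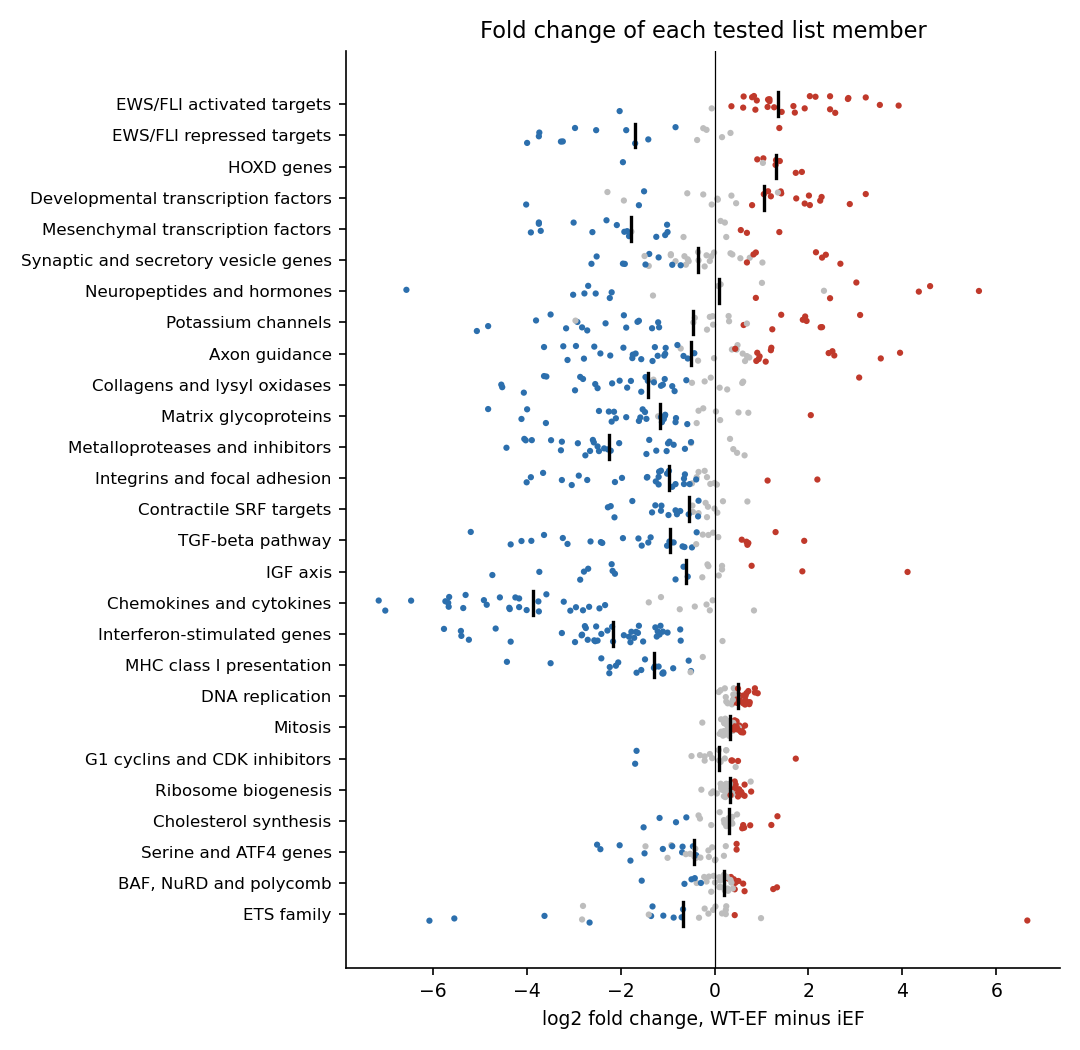
Log2 fold change of WT-EF relative to iEF for every tested member of the lists shown (lists that mark a cell identity are left out), red where called higher, blue where called lower and grey where not called, with the list median as a black bar. Their medians run from -3.87 for chemokines and cytokines to 1.35 for the activated targets, and replication, mitotic and ribosome biogenesis genes lie within 1 log2 unit of 0.

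The level reached by rescue was compared with cells that kept the fusion. WT-EF and iLuc differed in 5591 genes (18.3%), of which 2988 (9.78%) were higher and 2603 (8.52%) lower in WT-EF. Of the 17 listed repressed targets, 11 fell with rescue and 1, NR2F2, rose, with a median of -1.69 against iEF, and 14 of 17 stood above iLuc. The repressed list was compiled with results of these data known too. Of the integrin and focal adhesion list 28 of 35 lay above iLuc and 1 below. ITGA11, a collagen-binding integrin subunit, stood in iLuc at 0.283, 0.265 and 0.175 CPM, against 4.93, 3.05 and 3.93 CPM in WT-EF (log2 fold change 4.01, adjusted p = 4e-09). IGFBP5, not called against iEF, stood at 527, 329 and 299 CPM in WT-EF and at 19.9, 24.2 and 20.6 CPM in iLuc, and at 2350, 2930 and 2570 CPM in Δ22. For the HOXD genes 1 of 9 lay below iLuc and 0 above.

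Against the construct without the EWS domain, which also controls for carrying a cDNA, WT-EF differed in 7703 genes (25.2%), with 3261 higher (10.7%) and 4442 lower (14.5%). Δ22 itself differed from iEF in 817 genes (2.67%), with 0.881% higher and 1.79% lower. COL6A1 stood at 515, 650 and 267 CPM in Δ22, above every WT-EF library, and SMARCC1 at 147, 170 and 153 CPM, below every one. CHGB, a granin of secretory granules, was a case where the constructs were close: 23.2, 19.3 and 33.9 CPM in iEF, 4.69, 5.23 and 3.94 CPM in Δ22 and 5.31, 3.92 and 3.36 CPM in WT-EF, with a log2 fold change between the cDNAs of -0.14 (adjusted p = 0.733).

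A smaller set of genes went past both controls. With WT-EF 319 genes (1.04% of those tested) were higher than in both iEF and iLuc, and 373 (1.22%) were lower than in both. Of these, 228 of the higher were also above Δ22 and 220 of the lower also below it. Both counts depended on single libraries: without iLuc replicate 3 they were 520 and 642, and the count of lower genes was 228, 189 and 194 without WT-EF replicate 1, 2 and 3 and 223 and 240 without iLuc replicate 1 and 2. DACT2, a regulator of Wnt and TGF-beta signaling, stood at 2.59, 2.98 and 3.81 CPM in iLuc, 2.66, 1.78 and 6.08 CPM in iEF, 3.15, 3.19 and 9.57 CPM in Δ22 and 38.1, 38.2 and 41.1 CPM in WT-EF, so that all 3 WT-EF libraries stood apart from the other 9. Its log2 fold changes were 3.58 ± 0.34 over iEF and 3.67 over iLuc (adjusted p = 7.76e-08 and 1.13e-07).

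GAP43, A2M and PCSK1 also passed both tests, but were high in Δ22 as well. GAP43, a growth cone protein, stood at 19.5, 5.75 and 8.84 CPM in iLuc, 36.5, 28.1 and 20.2 CPM in iEF, 117, 136 and 112 CPM in Δ22 and 201, 165 and 172 CPM in WT-EF. PCSK1, a prohormone convertase, stood at 2.26, 1.46 and 2.00 CPM in iLuc, 31.1, 15.1 and 24.7 CPM in iEF, 109, 79.7 and 83.2 CPM in Δ22 and 154, 65.6 and 79.1 CPM in WT-EF. The direct tests of WT-EF against Δ22 were not called for GAP43, A2M and PCSK1 (log2 fold change 0.54, 0.15 and 0.06, adjusted p = 0.113, 0.763 and 0.906), which does not show that the 2 cDNAs act alike on them.

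Among genes lower than in both controls, TNFSF13B, the B cell survival factor BAFF, stood at 12.1, 25.6 and 8.27 CPM in iLuc, 6.39, 10.3 and 7.73 CPM in iEF and 0.961, 1.28 and 1.72 CPM in WT-EF (log2 fold change -2.60 ± 0.31 against iEF and -3.47 against iLuc). GDNF, a neurotrophic factor, stood at 7.24, 9.26 and 7.97 CPM in iLuc, 13.0, 9.86 and 14.8 CPM in iEF, 8.94, 7.43 and 9.19 CPM in Δ22 and 1.27, 1.35 and 1.94 CPM in WT-EF, with no overlap with any other group. G0S2, an inhibitor of lipolysis, fell by 2.14 ± 0.37 against iEF, with iLuc at 87.9, 85.5 and 17.6 CPM. DHRS3 lost its call against iLuc without WT-EF replicate 1 or 2 or iLuc replicate 2 (log2 fold change -1.91 to -2.18, adjusted p = 0.0528 to 0.0708).

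**Figure D5:**
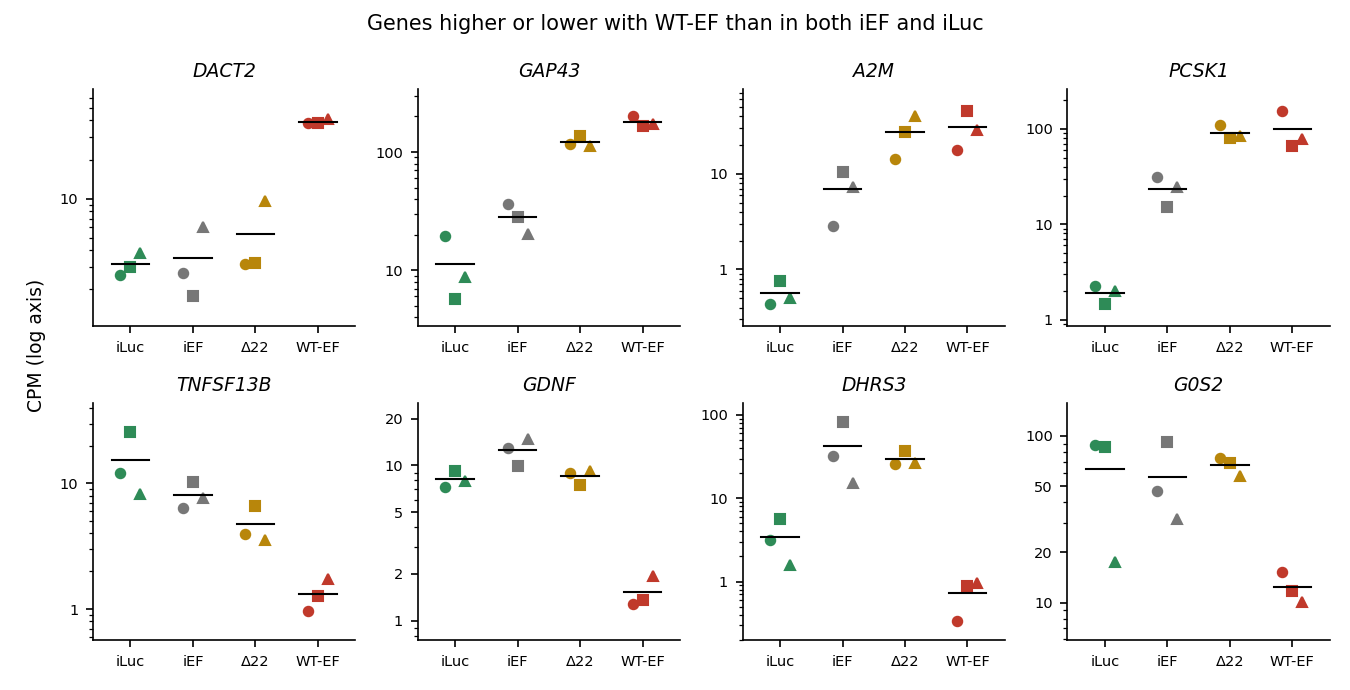
CPM on log axes for the 8 genes with the largest smaller difference from both iEF and iLuc, in 3 libraries each of iLuc (green), iEF (grey), Δ22 (gold) and WT-EF (red), with replicates 1, 2 and 3 as circles, squares and triangles. DACT2 was high in WT-EF alone, GAP43, A2M and PCSK1 were also high in Δ22, and the 4 genes of the lower row were lowest in WT-EF.

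Markers were used to check the label of the cells. The Ewing sarcoma markers NR0B1, NKX2-2, STEAP1, LIPI and FCGRT were present in all 6 libraries and all rose, STEAP1 from 50.7, 36.4 and 63.5 CPM to 126, 129 and 109 CPM. The surface marker CD99 had at most 2 counts in any of the 6 libraries, and lies in a region shared by the X and Y chromosomes, where reads with 2 places are not counted, so it cannot be read here. Summed markers of blood, epithelium and endothelium stood at 3.72 to 26.2, 4.88 to 9.10 and 4.57 to 9.48 CPM in iEF and at 1.97 to 2.33, 1.26 to 1.72 and 1.11 to 1.54 CPM in WT-EF. The highest blood value came mostly from ITGAM in iEF replicate 3, at 25.0 CPM against 2.57 and 2.1 in iEF replicates 1 and 2. Of the markers tested, 1 of 4, 2 of 6 and 3 of 5 fell and 0 rose, where 16.9% of all genes fell. CD3E and HBB were below the limit for testing, and the leukocyte gene PTPRC averaged 0.683 CPM in iEF and 0.476 CPM in WT-EF. The part of these markers in the cytokine and interferon results was not tested.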

How the data were processed

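RNA-seq libraries of A673 cells, made from total RNA with ScriptSeq, were analysed from the deposited files, and groups and replicate numbers came from the labels. The authors aligned paired-end reads to hg19 with STAR (2.5.1b in the submitters' processing notes; the paper's methods give another version) and deposited the raw count of each gene, made with HTSeq's intersection-strict option. Which annotation and strand setting it used is not given in the sources used here. The authors also deposited a signal, counts adjusted for replicate set with ComBat and not scaled for library size. A deposited table of log2 fold changes, standard errors and adjusted p-values was not used. The mut9d columns were taken to be DAF-mut9. The 5 summary lines of the count table were empty, so unassigned reads are not known.

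Of 57820 genes, 48035 had a count, and the 30549 whose mean over the libraries reached 1 count were tested in R 4.3.3 with edgeR 4.0.16 (TMM, quasi-likelihood test, Benjamini-Hochberg adjustment), on all 21 libraries with group and replicate number as terms. The numbers were taken to pair the samples. Deviations from the group means correlated at 0.13, 0.50 and 0.33 between same-numbered WT-EF and iEF libraries. Differently numbered libraries gave -0.441 to 0.229. The highest of these, WT-EF replicate 3 with iEF replicate 1, exceeded the value of pair 1, so the pairing of replicate 1 is not shown by these values. Replicates of a group differed by more than counting noise. CPM are counts scaled to 1000000 by the TMM library size. Alternatives were RLE scaling, other low-count filters, DESeq2 1.42.0, no replicate block, only the compared groups, a 2-fold requirement, limma 3.58.1 on the ComBat-adjusted values, and leaving out each library. For limma the ComBat-adjusted values were scaled by library totals alone, without TMM factors. The scripts were tested on simulated data.

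The contrast and the 31 gene lists were chosen with earlier results of these data known. Named genes were FLI1, EWSR1, the 5 genes of the study's qRT-PCR panel, the 8 highest and 8 lowest fold changes, up to 4 members of each list by absolute log2 fold change, and up to 4 genes each higher or lower than both iEF and iLuc. Apart from FLI1, EWSR1 and the panel, they needed a mean of 5 CPM, a call and 1 direction in all 3 replicate pairs. Some genes named by this rule are not reported here. Other members named were chosen after their values were seen. Of the 130 genes under this rule, 54 share some exon bases with another gene, and without the strand setting such reads cannot be told apart. Gene places are from GENCODE 44 lifted to GRCh37, and promoter sequences from RefSeq.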

Additional observations from a re-analysis of the deposited data

How the results depend on the processing

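The replicate numbers were used as a block throughout. With no replicate block, WT-EF differed from iEF in 7956 genes, from iLuc in 4838 and from Δ22 in 6985, and 245 and 280 genes were higher or lower than both iEF and iLuc. Under the 2-fold requirement the counts were 4985, 2918, 4180, 158 and 134 in that order. On ComBat-adjusted values 745 genes were higher and 244 lower than both, and 63.1% and 63.2% of calls against iEF and Δ22 were higher. With only the compared groups 183 were lower than both. Leaving out 1 library at a time gave 6561 to 7739 genes against iEF, 3933 to 6624 against iLuc, 5573 to 6535 against Δ22, and 228 to 520 higher and 189 to 642 lower than both. The other alternatives, RLE scaling, 2 other low-count filters and DESeq2, kept each of these counts within 1.5 times. Of 1900 values of named genes under alternatives, 0 reversed, 45 lost and 2 gained a call. Of 770 counts of list members 76 moved by over 1.5 times.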

Other observations

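Genes of neuronal signaling split between directions. Over all genes tested, 11.4% rose and 16.9% fell. Of 18 tested neuropeptide and hormone genes, 6 rose and 7 fell with WT-EF relative to iEF, and 3 fell on the ComBat-adjusted values. GRP, gastrin-releasing peptide, went from 2.78, 2.16 and 1.59 CPM to 45.0, 44.8 and 42.3 CPM (log2 fold change 4.35 ± 0.24, adjusted p = 6.21e-11), and CALCB, a calcitonin gene-related peptide, from 1.96, 1.10 and 1.86 CPM to 42.6, 36.3 and 40.9 CPM (4.59 ± 0.25, adjusted p = 6.21e-11), above its iLuc level of 17.1, 21.2 and 13.9 CPM. NPY rose by 3.02 ± 0.34 while GAL, galanin, fell by 3.01 ± 0.38. Among 46 axon guidance genes 13 rose and 23 fell. The receptor gene ROBO2 went from 12.3, 6.98 and 10.8 CPM to 146, 149 and 169 CPM (3.95 ± 0.21), EPHA5 rose by 3.54 ± 0.27 and DCC, the netrin receptor, by 2.51 ± 0.13, whereas the semaphorin receptor NRP2 fell by 3.63 ± 0.37 and the ligand NTN4 by 3.22 ± 0.19. Of 35 potassium channel genes 9 rose and 16 fell, and 10 fell on the ComBat-adjusted values. KCNMA1, the large-conductance calcium-activated channel, went from 119, 108 and 159 CPM to 12.3, 7.11 and 8.35 CPM (-3.80 ± 0.25) and the accessory subunit KCNE3 from 13.4, 7.38 and 12.7 CPM to 88.3, 96.6 and 101 CPM (3.10 ± 0.27). KCNJ2 fell by 2.92, but its iEF libraries spread from 1.78 to 49.5 CPM. Of 37 synaptic and secretory vesicle genes 7 rose and 9 fell, with SYT1, a vesicle calcium sensor, higher by 0.83 ± 0.21 and STX1A, a syntaxin, lower by 1.39 ± 0.20.

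Of 30 genes of serine synthesis and the ATF4 response, 11 fell and 2 rose, against 16.9% and 11.4% of all genes. Their medians were -0.45 for WT-EF, 0.66 for iLuc and -0.48 for Δ22, each relative to the same iEF libraries. In the direct test 22 of 30 lay below iLuc, where 8.52% of all genes did. How far this count rests on single iLuc libraries was not tested. ASNS, asparagine synthetase, stood at 41.4, 50.7 and 56.0 CPM in WT-EF and at 58.0, 81.6 and 145 CPM in iEF, and at 393, 464 and 46.1 CPM in iLuc, where replicate 3 stood apart. PSAT1, of serine synthesis, stood at 99.4, 117 and 116 CPM in WT-EF and at 609, 545 and 152 CPM in iLuc. The count of those that fell was 6, 6 and 7 without WT-EF replicate 1, 2 and 3 and 7 without iEF replicate 3, 6 on the ComBat-adjusted values and 19 with no low-count filter. WARS1, a tRNA synthetase, went from 496, 711 and 560 CPM to 176, 160 and 170 CPM (-1.79 ± 0.23, adjusted p = 3.4e-06). Of 25 cholesterol synthesis genes 6 rose and 4 fell, where 11.4% of all genes rose and 16.9% fell. On the ComBat-adjusted values 11 of the list rose and 2 fell. HSD17B7, of the later steps, went from 7.63, 11.7 and 10.7 CPM to 17.3, 19.4 and 14.5 CPM (0.76 ± 0.17), while INSIG1, which responds to sterols, fell by 1.51 log2 units. The sterol genes that fell numbered 2 without WT-EF replicate 3 or iEF replicate 2.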
